A study of Mus musculus with 15 samples.

Results

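Matrix metalloproteinases (Mmp), the related Adamts proteases and the tissue inhibitors of metalloproteinases (Timp) were followed in tumour nests of mouse basal cell carcinoma. The genes were taken by symbol: every protein-coding mouse gene named Mmp, Adamts or Timp with a number and an optional letter, the Adamts-like genes left out. This gave 46 genes of the 36528 listed, made up of 23 Mmp, 19 Adamts and 4 Timp genes. The nests were laser-captured from fresh frozen skin and their polyadenylated RNA was sequenced. All mice were K14Cre-ER; Ptch1fl/fl; p53fl/fl; Lgr5GFP, so that Cre, driven by the keratin 14 promoter, removes Ptch1 and p53 from keratin 14-expressing epithelium, and the untreated mice carried these alleles too. The 15 libraries formed 3 groups of 5: vismodegib nests, taken after 28 days on this inhibitor of Smoothened, and 2 untreated groups, labelled Ki67-negative and Ki67-positive. The vismodegib nests carry no Ki67 label. No label ties a library to an animal, so libraries of a group may share animals, which would make the p-values too small, and some of their spread may be technical. Accessions of the Ki67-negative libraries come from a later range, and a batch, if there was one, cannot be told apart from that group.

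Mmps are zinc proteases that are made as inactive precursors and are either secreted or held at the cell surface; together they cut most proteins of the extracellular matrix. Adamts proteases are secreted and bind the matrix through thrombospondin repeats, and their best known substrates are proteoglycans such as versican and aggrecan and the amino-terminal propeptides of fibrillar collagens. Timps block the active site of these enzymes. In skin tumours epithelial, stromal and immune cells all make members of these families.

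Libraries held 4887381 to 10328822 counts. Ki67-negative library 5 had a count in 19669 genes, against 21653 to 23322 in the other 14. Ptch1, a Hedgehog target and also the floxed gene, fell after vismodegib in both comparisons and averaged 551 ± 383 CPM (counts scaled to the size of the library) in vismodegib nests, 3147 ± 682 in Ki67-negative nests and 2973 ± 581 in Ki67-positive nests (SD, n = 5 each). Mki67, which encodes Ki67, averaged 683 ± 142 CPM in vismodegib nests, 361 ± 74.5 in Ki67-negative nests and 776 ± 228 in Ki67-positive nests (SD, n = 5 each). Marker sums of cell types also moved. The 6 epithelial tumour markers summed to 9907 to 13333 CPM in vismodegib nests, 4784 to 8414 in Ki67-negative nests and 6775 to 7921 in Ki67-positive nests, and all 6 had counts in every group. The 8 pericyte and smooth muscle markers summed to 143 to 261 CPM in vismodegib nests, 698 to 1104 in Ki67-negative nests and 631 to 968 in Ki67-positive nests. They did not all move 1 way: against each untreated group 5 had a log2 fold change below 0 and 3 above 0. The 12 fibroblast markers overlapped, with 489 to 3859 CPM in vismodegib nests, 2951 to 5456 in Ki67-negative nests and 1951 to 6687 in Ki67-positive nests. In such captured tissue, fewer cells of a type and less RNA per cell cannot be told apart.

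Vismodegib nests had less RNA of most expressed Adamts genes and of several Mmps, and more of a small set of Mmps. Of the 46 genes, 38 passed the filter on low counts and were tested. Against Ki67-negative nests 15 of the 38 fell and 2 rose, and 21 were not called; over all 17282 genes tested, 16.5% were called lower and 15.4% higher. Against Ki67-positive nests 17 fell and 4 rose, and 17 were not called, where 13.4% of all genes were called lower and 12.6% higher. In neither comparison was the number rising above the share over all genes. The median log2 fold change of the 38 genes was -1.05 against Ki67-negative and -0.90 against Ki67-positive nests, beside -0.03 and -0.02 over all genes. Both comparisons use the same 5 vismodegib libraries. Without Ki67-negative library 5, the counts were 15 lower and 2 higher against Ki67-negative nests and 18 lower and 4 higher against Ki67-positive nests. The filter shaped which genes could be tested: Adamts19 reached its level of 1.51 CPM in 0 vismodegib libraries, and Mmp25 in 0 Ki67-positive libraries. In vismodegib, Ki67-negative and Ki67-positive nests, Mmp25 reached it in 5, 3 and 0 libraries, Mmp28 in 5, 1 and 3, and Mmp9 in 4, 2 and 2. In the same order, Adamts4 and Adamts20 reached it in 2, 5 and 5 libraries, Adamts3 in 1, 3 and 4, and Adamts18 in 3, 5 and 5. Such genes passed with the help of the groups where they are high. The numbers rising and falling are therefore not independent of the filter. A call is an adjusted p under 0.05 in edgeR's quasi-likelihood fit, with Benjamini-Hochberg adjustment over all genes. All 5 vismodegib libraries lay below all 5 Ki67-negative libraries for 13 of the 38 genes and above them for 1, where 10.2% and 10.4% of all genes did. Against Ki67-positive libraries they lay below for 9 and above for 3, where 10.1% and 10.2% of all genes did.

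**Figure D1:**
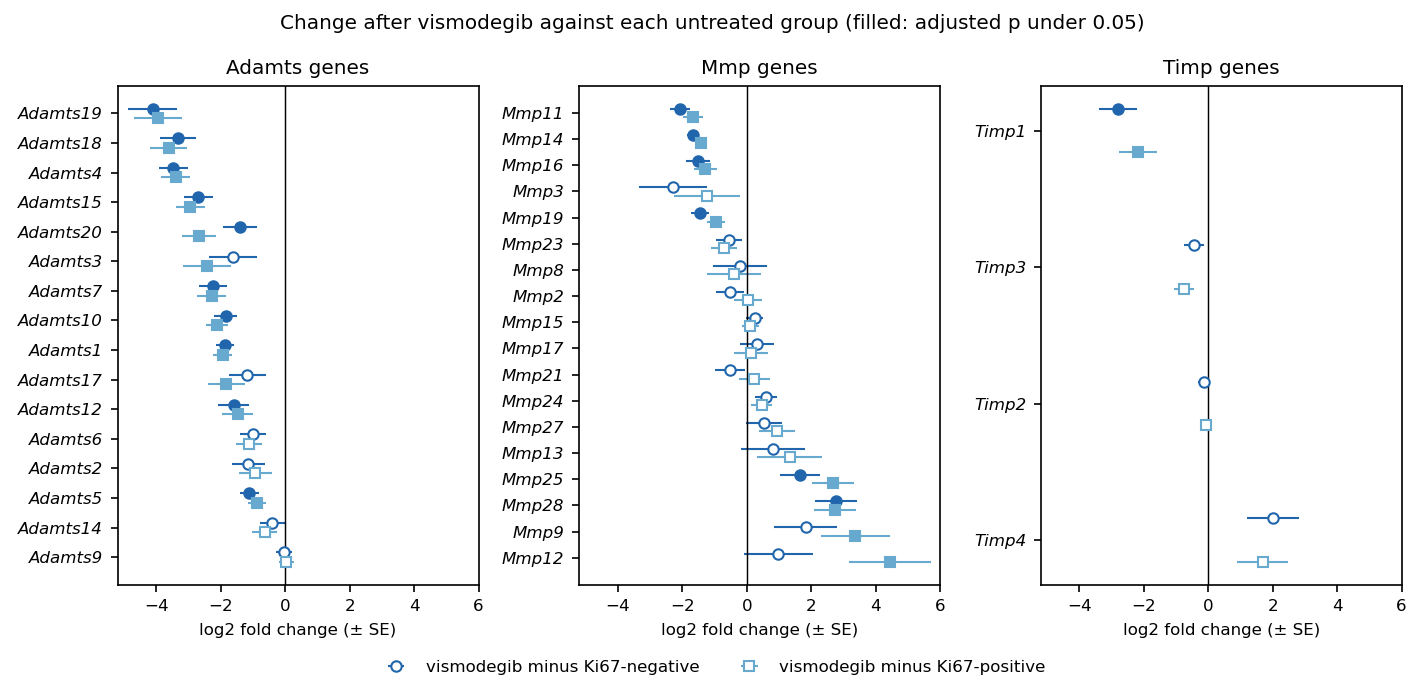
Log2 fold change of the 38 tested genes in vismodegib nests against Ki67-negative (circles) and Ki67-positive (squares) nests, with standard errors, by family; filled symbols have an adjusted p under 0.05. The Adamts genes lie to the left of 0 except Adamts9, which lies at it, and the Mmp genes run from Mmp3 at -2.29, not called, against Ki67-negative nests to Mmp12 at 4.45 against Ki67-positive nests.

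Of the 6 proteoglycan-cleaving Adamts genes that were tested, 5 fell against each untreated group and Adamts9 was not called. Adamts1, a versican-cleaving protease and the Adamts gene with the highest level per length, had 74.45, 72.6, 132.5, 214.9 and 79.75 CPM in vismodegib nests, 532.9, 401.5, 348.8, 439.7 and 373.8 CPM in Ki67-negative nests and 413.2, 440.1, 675.2, 343.2 and 339.2 CPM in Ki67-positive nests. Every vismodegib value of Adamts1 was below every untreated value. Against Ki67-negative nests Adamts1 had a log2 fold change of -1.87 ± 0.285 (SE, adjusted p = 0.000113), and against Ki67-positive nests of -1.94 ± 0.286 (SE, adjusted p = 9.53e-05). Adamts4, an aggrecan- and versican-cleaving protease, had 2.62, 0.316, 1.385, 2.92 and 0.917 CPM in vismodegib nests, 15.2, 21.4, 12.3, 27.9 and 14.7 CPM in Ki67-negative nests and 19.35, 8.36, 12, 18.05 and 30.1 CPM in Ki67-positive nests. No vismodegib library reached the lowest untreated one for Adamts4. Against Ki67-negative nests Adamts4 had a log2 fold change of -3.47 ± 0.457 (SE, adjusted p = 2.08e-05), and against Ki67-positive nests of -3.40 ± 0.457 (SE, adjusted p = 2.89e-05). Adamts4 is among the genes whose model overlaps another, and the use of strand in counting is not given in the sources used here.

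Adamts15, another versican-cleaving member, had 2.62, 1.90, 2.28, 5.105 and 2.36 CPM in vismodegib nests, 15.5, 13.7, 9.29, 44.5 and 9.425 CPM in Ki67-negative nests and 29.3, 13.5, 16.2, 16 and 35.6 CPM in Ki67-positive nests. The vismodegib libraries were all lower than the 10 untreated ones, with library 4 the highest of the 5. Against Ki67-negative nests Adamts15 had a log2 fold change of -2.69 ± 0.458 (SE, adjusted p = 0.000248), and against Ki67-positive nests of -2.94 ± 0.46 (SE, adjusted p = 0.00013). Adamts20, known in mice from the belted coat mutant, in which melanoblasts fail to fill the trunk, had 0.925, 0.316, 0.693, 2.55 and 2.49 CPM in vismodegib nests, 1.94, 6.37, 5.05, 2.72 and 2.54 CPM in Ki67-negative nests and 5.835, 4.50, 9.27, 12.6 and 12.9 CPM in Ki67-positive nests. Its vismodegib values lay below all Ki67-positive values but overlapped the Ki67-negative ones. Against Ki67-negative nests Adamts20 had a log2 fold change of -1.39 ± 0.524 (SE, adjusted p = 0.0499), a call lost under 13 of 20 alternatives (adjusted p up to 0.137), among them leaving out 1 library, which was vismodegib 1, 2 or 3, Ki67-positive 1, 3, 4 or 5, or Ki67-negative 2 or 3. Against Ki67-positive nests Adamts20 had -2.67 ± 0.527 (SE, adjusted p = 0.001). The 6 melanocyte markers, summed, covered 98.0 to 401 CPM in vismodegib nests, 181 to 1191 in Ki67-negative nests and 335 to 1521 in Ki67-positive nests; their part in the Adamts20 result was not tested.

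Adamts5, the main aggrecanase of mouse cartilage, had 18.2, 8.06, 18.4, 29.7 and 30.1 CPM in vismodegib nests, 35.5, 43.1, 38.4, 48.8 and 60.3 CPM in Ki67-negative nests and 53.9, 40.8, 24.5, 38.85 and 33.8 CPM in Ki67-positive nests. Vismodegib and Ki67-negative values of Adamts5 did not overlap, while 2 vismodegib libraries exceeded the lowest Ki67-positive one. Against Ki67-negative nests Adamts5 had a log2 fold change of -1.11 ± 0.287 (SE, adjusted p = 0.00667), and against Ki67-positive nests of -0.87 ± 0.286 (SE, adjusted p = 0.0309). The Ki67-positive call of Adamts5 did not hold without vismodegib library 1 (-0.82, adjusted p = 0.0702) or 3 (-0.83, adjusted p = 0.0714), or Ki67-positive library 1 (-0.72, adjusted p = 0.085), 2 (-0.85, adjusted p = 0.0604) or 4 (-0.87, adjusted p = 0.0546). Adamts1 and Adamts5 are neighbours on chromosome 16, 55 kb apart. Adamts9, a versican-cleaving protease conserved down to worms, had 56.3, 56.1, 68.1, 111.9 and 86.2 CPM in vismodegib nests, 52.3, 78.9, 53.1, 125.5 and 79.3 CPM in Ki67-negative nests and 99.8, 56.8, 77.1, 67.8 and 66.95 CPM in Ki67-positive nests. The 3 groups overlapped throughout. The model of Adamts9 overlaps long non-coding RNA genes, among them A730049H05Rik with 95 to 557 counts per library, and reads of overlapping genes cannot be told apart without strand. Against Ki67-negative nests Adamts9 had a log2 fold change of -0.04 ± 0.244 (SE, adjusted p = 0.92), and against Ki67-positive nests of 0.04 ± 0.244 (SE, adjusted p = 0.922); the approximate 95% interval of the second ran from -0.44 to 0.52.

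**Figure D2:**
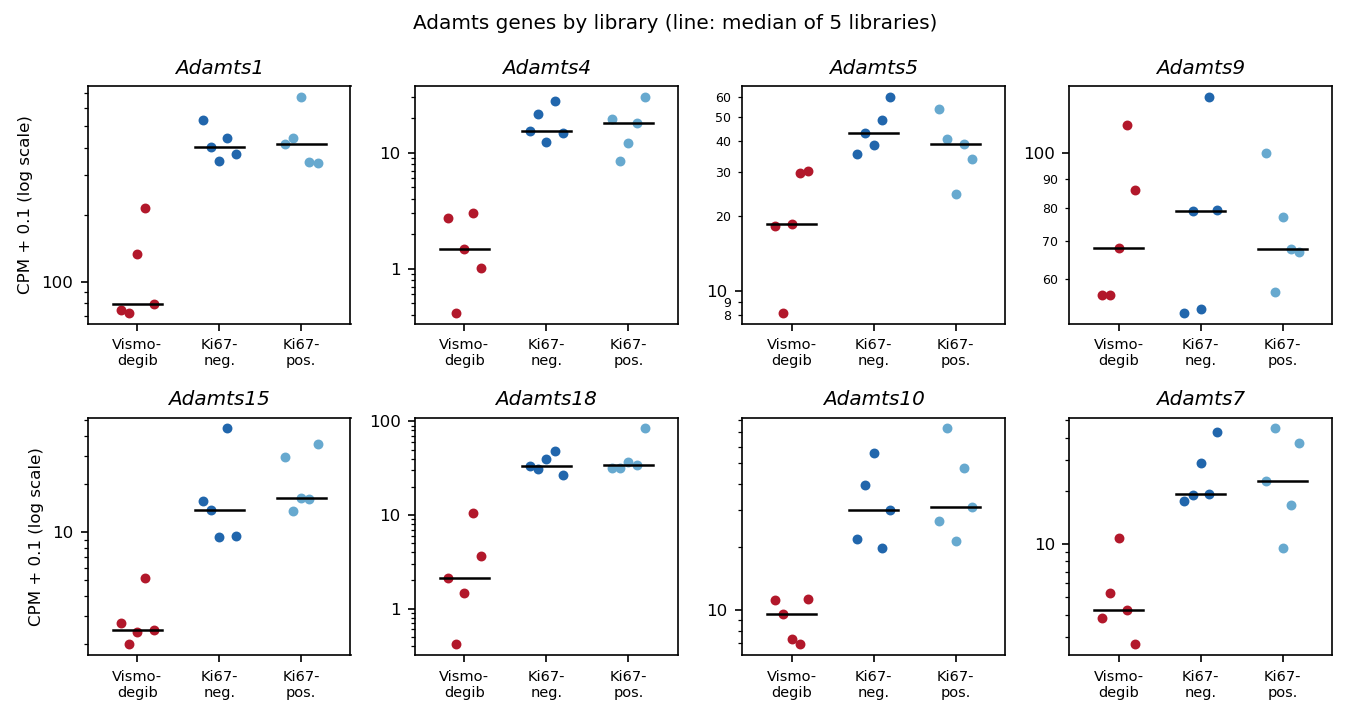
CPM plus 0.1 on a log scale for 8 Adamts genes, 1 point per library, with vismodegib, Ki67-negative and Ki67-positive nests from left to right and a line at the median of the 5 libraries. The vismodegib points of Adamts1, Adamts4, Adamts15, Adamts18 and Adamts10 lie below all untreated points, and those of Adamts9 lie among them.

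Of the 7 tested Adamts genes outside the proteoglycan-cleaving and procollagen-processing groups, 5 fell against Ki67-negative nests and 6 against Ki67-positive nests. Adamts18, a protease paired with Adamts16 by sequence, had 2.004, 0.316, 1.385, 10.3 and 3.54 CPM in vismodegib nests, 33.2, 31.02, 39.2, 48.2 and 26.9 CPM in Ki67-negative nests and 31.5, 32, 37.2, 34.5 and 84.3 CPM in Ki67-positive nests. The highest vismodegib library stayed below the lowest untreated one. Against Ki67-negative nests Adamts18 had a log2 fold change of -3.32 ± 0.563 (SE, adjusted p = 0.00036), and against Ki67-positive nests of -3.61 ± 0.567 (SE, adjusted p = 0.000208). Adamts19, paired by sequence with Adamts17, had 0, 0, 0.495, 0.972 and 0 CPM in vismodegib nests, 4.52, 3.12, 10.5, 2.57 and 8.38 CPM in Ki67-negative nests and 5.835, 3.86, 5.70, 2.63 and 7.69 CPM in Ki67-positive nests. It was without a count in 3 of 5 vismodegib libraries and had counts in all 10 untreated ones. Against Ki67-negative nests Adamts19 had a log2 fold change of -4.11 ± 0.751 (SE, adjusted p = 0.000455), and against Ki67-positive nests of -3.94 ± 0.749 (SE, adjusted p = 0.000719); these sizes rest on 13 counts in all vismodegib libraries together. Adamts10, which binds fibrillin microfibrils, had 11.1, 9.49, 7.22, 6.81 and 11.3 CPM in vismodegib nests, 21.6, 39.1, 55.5, 19.8 and 29.8 CPM in Ki67-negative nests and 26.4, 73.2, 21.3, 47.3 and 30.95 CPM in Ki67-positive nests. The vismodegib values of Adamts10 were the tightest of any tested member in that group, with a coefficient of variation of 22.8%, and did not overlap the untreated ones. Against Ki67-negative nests Adamts10 had a log2 fold change of -1.85 ± 0.344 (SE, adjusted p = 0.00054), and against Ki67-positive nests of -2.12 ± 0.345 (SE, adjusted p = 0.000184).

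Adamts7 and Adamts12, a pair known to cleave cartilage oligomeric matrix protein, were also lower. Adamts7 had 3.70, 5.22, 10.8, 4.13 and 2.62 CPM in vismodegib nests, 17.4, 18.8, 28.7, 19.02 and 42.9 CPM in Ki67-negative nests and 22.6, 45.02, 9.39, 16.6 and 37.2 CPM in Ki67-positive nests. Only vismodegib library 3 exceeded an untreated library, Ki67-positive library 3. Against Ki67-negative nests Adamts7 had a log2 fold change of -2.24 ± 0.44 (SE, adjusted p = 0.000923), and against Ki67-positive nests of -2.28 ± 0.44 (SE, adjusted p = 0.000898). Adamts12 had 8.79, 7.43, 10.8, 30.75 and 9.56 CPM in vismodegib nests, 37.75, 62.75, 53.9, 38.5 and 10.6 CPM in Ki67-negative nests and 43.3, 23.15, 21.4, 68.9 and 29.7 CPM in Ki67-positive nests. Vismodegib library 4 stood above the other 4 and overlapped both untreated groups, and library 3 exceeded Ki67-negative library 5. Against Ki67-negative nests Adamts12 had a log2 fold change of -1.59 ± 0.481 (SE, adjusted p = 0.0194), lost with no count filter (adjusted p = 0.0532), and against Ki67-positive nests of -1.47 ± 0.48 (SE, adjusted p = 0.0335). The Ki67-positive call was lost with no count filter (adjusted p = 0.0828) and without vismodegib library 1, 2, 3 or 5 or Ki67-positive library 1 or 4, where the fold changes lay between -1.41 and -1.12 and the adjusted p between 0.0584 and 0.102.

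Adamts17 and Adamts3 fell against Ki67-positive nests and were not called against Ki67-negative nests; the difference between the 2 untreated groups was not called for either. Adamts17, mutated in a Weill-Marchesani-like syndrome in humans, had 6.63, 4.11, 27.4, 42.3 and 13.5 CPM in vismodegib nests, 45.8, 30.03, 27.3, 24.2 and 85.3 CPM in Ki67-negative nests and 54.2, 31.5, 68.7, 46.7 and 134.1 CPM in Ki67-positive nests. Vismodegib libraries 1, 2 and 5 were low, and libraries 3 and 4 lay among the untreated ones. Against Ki67-negative nests Adamts17 had a log2 fold change of -1.17 ± 0.577 (SE, adjusted p = 0.139), and against Ki67-positive nests of -1.82 ± 0.584 (SE, adjusted p = 0.0325). The call was lost with no count filter (adjusted p = 0.0787), with only the 2 groups in the fit (adjusted p = 0.051), and without vismodegib library 1, 2 or 5 or Ki67-positive library 3 or 5 (log2 fold change -1.81 to -1.41, adjusted p up to 0.0887), and without vismodegib library 4 the Ki67-negative comparison was called at -1.70 (adjusted p = 0.0388). Adamts3, which removes procollagen propeptides and helps to activate the lymphatic growth factor Vegfc, had 0.308, 0.158, 2.97, 0.486 and 0.262 CPM in vismodegib nests, 3.71, 4.39, 4.04, 1.21 and 0.598 CPM in Ki67-negative nests and 1.075, 3.86, 4.63, 7.998 and 6.67 CPM in Ki67-positive nests. Vismodegib library 3 stood far above the other 4. Against Ki67-negative nests Adamts3 had a log2 fold change of -1.63 ± 0.745 (SE, adjusted p = 0.103), and without vismodegib library 3 of -3.09 (adjusted p = 0.00537). Against Ki67-positive nests Adamts3 had -2.43 ± 0.744 (SE, adjusted p = 0.0215), a call lost without vismodegib library 1, 4 or 5 or Ki67-positive library 4 (-2.28 to -2.17, adjusted p up to 0.0584). The fibroblast and pericyte marker sums were lower with these Adamts genes in vismodegib nests, and their part in the Adamts results was not tested. The other procollagen N-proteinases, Adamts2 and Adamts14, and Adamts6 were not called in any comparison, with log2 fold changes between -1.14 and -0.40 against Ki67-negative nests and between -1.12 and -0.63 against Ki67-positive nests.

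Among the membrane-bound Mmps, Mmp14 and Mmp16 fell and Mmp25 rose. Mmp14, the membrane collagenase that activates pro-Mmp2, had the highest level per length of all Mmps, with 57.96, 50.4, 55.9, 89.6 and 79.5 CPM in vismodegib nests, 187.5, 218, 169.2, 245.5 and 244.6 CPM in Ki67-negative nests and 218.4, 171.7, 134, 201.2 and 164 CPM in Ki67-positive nests. The highest vismodegib library was below the lowest untreated library. Against Ki67-negative nests Mmp14 had a log2 fold change of -1.67 ± 0.179 (SE, adjusted p = 2.52e-06), and against Ki67-positive nests of -1.41 ± 0.178 (SE, adjusted p = 1.56e-05). Mmp16, a related transmembrane protease, had 8.94, 2.69, 5.34, 15.7 and 16.5 CPM in vismodegib nests, 25.65, 35.98, 24.03, 30.2 and 23.6 CPM in Ki67-negative nests and 32.4, 21.1, 13.7, 29.8 and 22.65 CPM in Ki67-positive nests. Vismodegib values of Mmp16 were all below the Ki67-negative values, and libraries 4 and 5 exceeded the lowest Ki67-positive one. Against Ki67-negative nests Mmp16 had a log2 fold change of -1.50 ± 0.37 (SE, adjusted p = 0.00497), and against Ki67-positive nests of -1.28 ± 0.369 (SE, adjusted p = 0.0156). Mmp25, a lipid-anchored protease first known from leukocytes, had 5.55, 1.90, 2.87, 3.16 and 9.30 CPM in vismodegib nests, 0.484, 1.56, 0.202, 2.11 and 2.69 CPM in Ki67-negative nests and 1.23, 0.804, 0.238, 0.343 and 1.01 CPM in Ki67-positive nests. All vismodegib libraries exceeded all Ki67-positive libraries, while the Ki67-negative values reached into the vismodegib range. Against Ki67-negative nests Mmp25 had a log2 fold change of 1.66 ± 0.612 (SE, adjusted p = 0.0465), and against Ki67-positive nests of 2.67 ± 0.654 (SE, adjusted p = 0.00534). The Ki67-negative call was lost under 12 of 20 alternatives (log2 fold change 1.23 to 1.79, adjusted p up to 0.161), among them leaving out 1 library, which was vismodegib 1, 3, 4 or 5, Ki67-positive 2, 4 or 5, or Ki67-negative 1, 2 or 3. Mmp25 overlaps Bicdl2, which rose by a log2 fold change of 1.80 ± 0.371 against Ki67-positive nests (adjusted p = 0.00145), and reads of overlapping genes cannot be told apart without strand. Mmp15, Mmp17, Mmp23 and Mmp24 were not called in any comparison.

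Of the secreted Mmps outside the cluster on chromosome 9, Mmp11 and Mmp19 fell and Mmp28 rose against each untreated group, and Mmp9 was called higher against Ki67-positive nests and not called against Ki67-negative nests. Mmp11, stromelysin-3, known from the stroma around carcinomas, had 12.95, 6.01, 7.42, 8.99 and 13.4 CPM in vismodegib nests, 40.5, 39.7, 32.1, 57.8 and 33.7 CPM in Ki67-negative nests and 57.1, 16.2, 22.45, 28.9 and 29.1 CPM in Ki67-positive nests. The vismodegib values of Mmp11 lay below all untreated values, and the 2 untreated groups overlapped each other. Against Ki67-negative nests Mmp11 had a log2 fold change of -2.06 ± 0.31 (SE, adjusted p = 7.38e-05), and against Ki67-positive nests of -1.66 ± 0.308 (SE, adjusted p = 0.000587). Fibroblast markers were lower as well, with 6 of 12 called against Ki67-negative and 5 of 12 against Ki67-positive nests, where 16.5% and 13.4% of all genes were called lower. The part of the fibroblast markers in the Mmp11 result was not tested. Mmp19, a basement membrane-degrading protease, had 14.6, 11.7, 14.65, 26.4 and 11.7 CPM in vismodegib nests, 34.2, 31.02, 29.1, 56.9 and 63.9 CPM in Ki67-negative nests and 35.01, 24.9, 23.4, 28.6 and 41.3 CPM in Ki67-positive nests. Only vismodegib library 4 reached into the Ki67-positive range. Against Ki67-negative nests Mmp19 had a log2 fold change of -1.44 ± 0.275 (SE, adjusted p = 0.000664), and against Ki67-positive nests of -0.95 ± 0.274 (SE, adjusted p = 0.0153). The gene overlaps Tmem198b, which fell by a log2 fold change of 1.10 against Ki67-positive nests (adjusted p = 0.000254). Mmp2, gelatinase A, had 46.9, 47.9, 65.4, 89.7 and 78.2 CPM in vismodegib nests, 60.5, 119.1, 40.6, 165.2 and 83.6 CPM in Ki67-negative nests and 126.4, 26.7, 25.7, 83.98 and 56.6 CPM in Ki67-positive nests. The groups overlapped, and against Ki67-negative nests Mmp2 had -0.52 ± 0.438 (SE, adjusted p = 0.394) and against Ki67-positive nests 0.04 ± 0.438 (SE, adjusted p = 0.958).

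Mmp28, epilysin, a protease known from keratinocytes, had 8.79, 18.3, 6.93, 6.81 and 9.30 CPM in vismodegib nests, 0.968, 0.850, 1.21, 4.08 and 0.150 CPM in Ki67-negative nests and 3.07, 0.322, 0.475, 1.94 and 1.62 CPM in Ki67-positive nests. Each vismodegib library was above each untreated library. Against Ki67-negative nests Mmp28 had a log2 fold change of 2.77 ± 0.647 (SE, adjusted p = 0.00337), and against Ki67-positive nests of 2.74 ± 0.644 (SE, adjusted p = 0.00391). These sizes rest on 46 counts in all Ki67-negative libraries together and 51 in all Ki67-positive ones. Krt14, a basal keratinocyte keratin, had a log2 fold change of 1.73 ± 0.197 against Ki67-negative nests (adjusted p = 4.51e-06) and of 1.40 ± 0.195 against Ki67-positive nests (adjusted p = 4.09e-05). These were the highest of the 6 epithelial tumour markers, whose lowest were -0.44 and -0.66. Of the 6, 3 rose and 0 fell against Ki67-negative nests, where 15.4% of all genes rose and 16.5% fell. Against Ki67-positive nests 3 rose and 1 fell, where 12.6% of all genes rose and 13.4% fell. The part of these markers in the Mmp28 result was not tested. Mmp9, gelatinase B, a product of leukocytes and of migrating keratinocytes, had 14.2, 7.59, 21.9, 5.71 and 0.524 CPM in vismodegib nests, 0, 3.97, 1.41, 8.30 and 0.150 CPM in Ki67-negative nests and 2.15, 1.77, 0.119, 0.571 and 0.202 CPM in Ki67-positive nests. Vismodegib libraries 1 to 4 exceeded every Ki67-positive library, and library 5 lay inside that group. Against Ki67-negative nests Mmp9 had a log2 fold change of 1.83 ± 0.985 (SE, adjusted p = 0.168), or of 2.82 without Ki67-negative library 4 (adjusted p = 0.0499). Against Ki67-positive nests Mmp9 had 3.37 ± 1.08 (SE, adjusted p = 0.0303), a call lost with no count filter (adjusted p = 0.0728), with limma voom (adjusted p = 0.124), and without vismodegib library 1 or 3 or Ki67-positive library 3, 4 or 5 (log2 fold change 2.85 to 3.22, adjusted p up to 0.0777). The 7 neutrophil markers summed to 42.1 to 580 CPM in vismodegib nests, 25.0 to 2088 in Ki67-negative nests and 20.3 to 921 in Ki67-positive nests, with Elane at 0 in all groups and Ly6g at 0 in Ki67-positive nests. The 8 Langerhans and dendritic cell markers summed to 715 to 2348 CPM in vismodegib nests, 134 to 467 in Ki67-negative nests and 100 to 481 in Ki67-positive nests. The 5 T cell markers summed to 33.8 to 99.4 CPM in vismodegib nests, 7.10 to 44.4 in Ki67-negative nests and 10.9 to 33.0 in Ki67-positive nests. Of the 5, 4 rose against each untreated group, where 15.4% of all genes rose against Ki67-negative and 12.6% against Ki67-positive nests. The part of these lists in the Mmp9 and Mmp25 results was not tested.

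**Figure D3:**
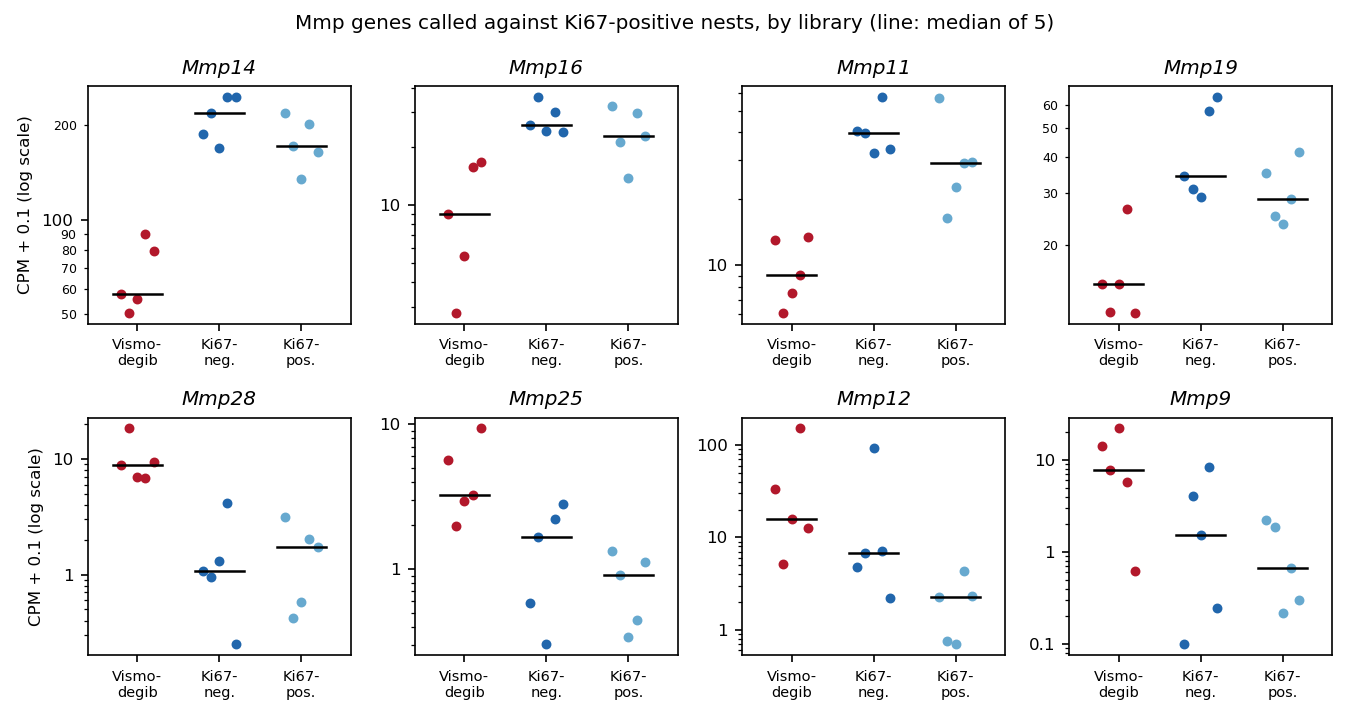
CPM plus 0.1 on a log scale for the 8 Mmp genes called against Ki67-positive nests, 1 point per library, with vismodegib, Ki67-negative and Ki67-positive nests from left to right and a line at the median of 5. Mmp14 and Mmp11 are lower and Mmp28 is higher in all 5 vismodegib libraries than in all 10 untreated ones, while Mmp12 has a single high library at 152.4 in vismodegib nests and at 92.3 in Ki67-negative nests.

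A cluster of 10 Mmp genes lies within 427 kb of chromosome 9, in the order Mmp13, Mmp12, Mmp1b, Mmp3, Mmp1a, Mmp10, Mmp8, Mmp27, Mmp20 and Mmp7. Many of these genes are known as targets of AP-1, the Fos and Jun transcription factor, and their upstream sequence is shown for that reason, beside that of Mmp14 and Adamts1, the most abundant proteases that fell. The motif searched was TGANTCA, where N is any base, on both strands, in the 250 bases before each start in the RefSeq promoters of GRCm38.p6. Of the 46 genes, 32 had a promoter there, with 35 promoters in all, and 8 of these 35 held the motif, against 6.75% of all 32851 promoters. The 8 belonged to 8 of the cluster's 10 genes, and the other 22 genes with a promoter had 0. Mmp12 and Mmp7 each have 2 starts in the table: in Mmp12 the upstream start has no match and the downstream one does, and in Mmp7 the upstream start has the match and the downstream one has none. The cluster's promoters had a GC content of 37.2% to 53.2% and the others of 53.6% to 79.2%. The Gli motif GACCACCCA was found in 0 of the 35, against 0.225% of all promoters. The 100 bases before the start, 5′ to 3′ on the gene's own strand, are as follows, with the AP-1 match in capitals.
Mmp13 (chr9:7272414-7272513, + strand): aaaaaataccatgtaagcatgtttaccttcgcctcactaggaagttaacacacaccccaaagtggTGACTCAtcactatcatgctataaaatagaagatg
Mmp12, downstream start (chr9:7347274-7347373, + strand): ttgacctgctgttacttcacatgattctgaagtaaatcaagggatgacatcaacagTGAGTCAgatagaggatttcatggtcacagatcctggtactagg
Mmp3 (chr9:7445722-7445821, + strand): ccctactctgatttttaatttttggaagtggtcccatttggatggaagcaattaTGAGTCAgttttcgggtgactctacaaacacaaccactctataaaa
Mmp10 (chr9:7502242-7502341, + strand): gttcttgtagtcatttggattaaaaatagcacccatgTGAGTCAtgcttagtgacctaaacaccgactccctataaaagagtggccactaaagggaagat
Mmp7 (chr9:7691990-7692089, + strand): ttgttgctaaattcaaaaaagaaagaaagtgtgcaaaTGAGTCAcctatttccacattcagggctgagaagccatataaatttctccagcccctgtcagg
Mmp14 (chr14:54431498-54431597, + strand): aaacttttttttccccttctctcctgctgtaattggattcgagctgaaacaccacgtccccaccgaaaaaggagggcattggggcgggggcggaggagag
Adamts1 (chr16:85803114-85803213, - strand): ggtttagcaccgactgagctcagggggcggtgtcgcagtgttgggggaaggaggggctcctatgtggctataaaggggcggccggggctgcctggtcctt
The match ended 29 bases before the start in Mmp13, 38 in Mmp12, 40 in Mmp3 and 57 in both Mmp10 and Mmp7. A match is a description of these letters only.

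Of the cluster's tested genes, Mmp12 was called higher against Ki67-positive nests and none was called against Ki67-negative nests. Mmp12, macrophage elastase, had 33.45, 5.06, 15.6, 152.4 and 12.6 CPM in vismodegib nests, 4.68, 6.66, 92.3, 7.10 and 2.09 CPM in Ki67-negative nests and 2.15, 0.643, 0.594, 4.23 and 2.225 CPM in Ki67-positive nests. All vismodegib libraries exceeded all Ki67-positive libraries, and a single library was far above the rest in each of the vismodegib and Ki67-negative groups. Against Ki67-negative nests Mmp12 had a log2 fold change of 0.98 ± 1.07 (SE, adjusted p = 0.516), which was 3.09 without Ki67-negative library 3 (adjusted p = 0.0231) and -0.42 without vismodegib library 4 (adjusted p = 0.783). Against Ki67-positive nests Mmp12 had 4.45 ± 1.28 (SE, adjusted p = 0.0205), a call lost with limma voom (3.82, adjusted p = 0.102) and without vismodegib library 4 (3.06, adjusted p = 0.0549) or Ki67-positive library 2 (4.24, adjusted p = 0.0513) or 3 (4.20, adjusted p = 0.0512). The 9 macrophage markers summed to 158 CPM in vismodegib library 4, within that group's 79.9 to 172. They summed to 120 CPM in Ki67-negative library 3, within that group's 65.8 to 181, and to 38.1 to 130 CPM in Ki67-positive nests. The part of the macrophage markers in the Mmp12 result was not tested.

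Mmp3, stromelysin-1, had 6.01, 1.58, 7.52, 14.6 and 7.73 CPM in vismodegib nests, 21.5, 18.3, 3.03, 123.4 and 18.55 CPM in Ki67-negative nests and 66.8, 1.61, 3.21, 6.28 and 11.9 CPM in Ki67-positive nests. Ki67-negative library 4 and Ki67-positive library 1 were the highest of their groups. Those 2 libraries also had the highest values of their groups for Mmp10, stromelysin-2, at 7.10 and 2.15 CPM, and the largest neutrophil marker sums, at 2088 and 921 CPM; that list includes S100a8 and S100a9, which stressed keratinocytes also make. Neither association was tested. Against Ki67-negative nests Mmp3 had a log2 fold change of -2.29 ± 1.05 (SE, adjusted p = 0.112), and against Ki67-positive nests of -1.24 ± 1.03 (SE, adjusted p = 0.415). Mmp13, collagenase-3, had 15.7, 0.474, 17.7, 17.1 and 0.393 CPM in vismodegib nests, 1.13, 3.82, 11.1, 12.1 and 1.35 CPM in Ki67-negative nests and 5.99, 6.91, 0.119, 1.26 and 6.67 CPM in Ki67-positive nests. Vismodegib libraries 1, 3 and 4 were high and libraries 2 and 5 were low, and Mmp13 was not called. Mmp8, neutrophil collagenase, and Mmp27 were tested and not called. Mmp7, matrilysin, did not pass the filter: it had 11 counts over 4 of 5 vismodegib libraries and 0 in the 10 untreated libraries, which allows up to 0.0456 CPM there (3 counts of the total, counting error only). Mmp1b and Mmp20, the enamel protease, had 0 counts in all 15 libraries, which allows up to 0.0284 CPM, and Mmp1a had 4 counts in all. Mmp1a and Mmp1b are related copies, and any reads that fit both are lost to counts of unique alignments. How many reads that concerns was not measured.

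Of the Timps, Timp1 fell and the abundant members were not called. Timp1, a broad inhibitor of secreted Mmps that is weak on membrane-bound ones, had 3.70, 0.316, 1.68, 1.58 and 2.23 CPM in vismodegib nests, 6.45, 4.67, 9.49, 21.7 and 23.8 CPM in Ki67-negative nests and 15.05, 5.63, 5.23, 3.085 and 14.4 CPM in Ki67-positive nests. Vismodegib library 1 exceeded the lowest Ki67-positive library, and the other vismodegib values were below all untreated ones. Against Ki67-negative nests Timp1 had a log2 fold change of -2.79 ± 0.594 (SE, adjusted p = 0.00169), and against Ki67-positive nests of -2.17 ± 0.589 (SE, adjusted p = 0.0107), lost with limma voom (adjusted p = 0.0552). The gene lies inside Syn1, so reads of the pair cannot be told apart without strand. Timp2, which bridges Mmp14 and pro-Mmp2, had 162, 124.8, 249.7, 228 and 242.3 CPM in vismodegib nests, 264.1, 217.7, 184.6, 235.5 and 206.9 CPM in Ki67-negative nests and 241.2, 143.6, 233.6, 227.2 and 212.8 CPM in Ki67-positive nests. Its groups overlapped fully, and against Ki67-negative nests Timp2 had -0.14 ± 0.184 (SE, adjusted p = 0.598) and against Ki67-positive nests -0.07 ± 0.184 (SE, adjusted p = 0.813). Timp3, the matrix-bound inhibitor that also blocks Adamts enzymes, had 246.9, 668.7, 324.3, 361.1 and 238.2 CPM in vismodegib nests, 755.5, 497.6, 580.2, 338.8 and 306.8 CPM in Ki67-negative nests and 547.3, 499.1, 890.3, 748.8 and 386.1 CPM in Ki67-positive nests. Vismodegib library 2 was well above the other 4. Against Ki67-negative nests Timp3 had a log2 fold change of -0.43 ± 0.312 (SE, adjusted p = 0.311), and against Ki67-positive nests of -0.74 ± 0.312 (SE, adjusted p = 0.0933); without vismodegib library 2 these were -0.76 (adjusted p = 0.0423) and -1.07 (adjusted p = 0.00852). Timp3 lies inside Syn3, a synapsin gene, which itself had log2 fold changes of -0.48 against Ki67-negative and -0.75 against Ki67-positive nests (adjusted p = 0.0317 and 0.00222). Timp4 was not called, at 2.0 ± 0.813 (SE, adjusted p = 0.0676) against Ki67-negative and 1.69 ± 0.787 (SE, adjusted p = 0.125) against Ki67-positive nests.

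Levels of different genes were set side by side with the deposited RPKM (reads scaled for gene length and library size). Over the 15 libraries the highest mean levels were those of Timp3 at 29.1, Adamts1 at 18.4, Mmp14 at 16.3, Timp2 at 16.1 and Mmp2 at 6.41 RPKM, and the next, Mmp11, had 3.25. Timp3, Adamts1, Mmp14 and Timp2 overlapped one another in their range over libraries. The 19 Adamts genes summed to 13.1 ± 5.78 RPKM in vismodegib nests, 40.1 ± 2.89 in Ki67-negative nests and 42.5 ± 5.05 in Ki67-positive nests (SD, n = 5 each). Their vismodegib range of 8.01 to 22.5 lay below 36.1 to 43.0 and 37.5 to 51.0 in the untreated groups. Adamts1 made up 48.1% ± 6.38 of the sum in vismodegib nests, 59.3% ± 5.91 in Ki67-negative nests and 58.0% ± 10.8 in Ki67-positive nests (SD, n = 5 each). Without Adamts1 the sums were 6.63 ± 2.40 RPKM in vismodegib nests, 16.2 ± 1.99 in Ki67-negative nests and 17.5 ± 3.58 in Ki67-positive nests, and the vismodegib range again lay below both others. The 23 Mmp genes summed to 26.1 ± 8.88 RPKM in vismodegib nests, 52.1 ± 15.5 in Ki67-negative nests and 38.1 ± 13.7 in Ki67-positive nests, and the vismodegib and untreated ranges overlapped. Mmp14 and Mmp2 together made up 49.5% ± 7.497 of that sum in vismodegib nests, 60.2% ± 7.10 in Ki67-negative nests and 65.4% ± 5.92 in Ki67-positive nests. The 4 Timps summed to 37.8 ± 7.40 RPKM in vismodegib nests, 50.8 ± 9.69 in Ki67-negative nests and 55.2 ± 12.2 in Ki67-positive nests. Timp2 and Timp3 together made up 96.7% ± 2.93 of it in vismodegib nests, 90.8% ± 7.06 in Ki67-negative nests and 94.4% ± 3.85 in Ki67-positive nests (SD, n = 5 each). The ratio of the Timp sum to the protease sum was 1.07 ± 0.503 in vismodegib nests, 0.571 ± 0.172 in Ki67-negative nests and 0.694 ± 0.175 in Ki67-positive nests, and these overlapped. No test was run on the sums.

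**Figure D4:**
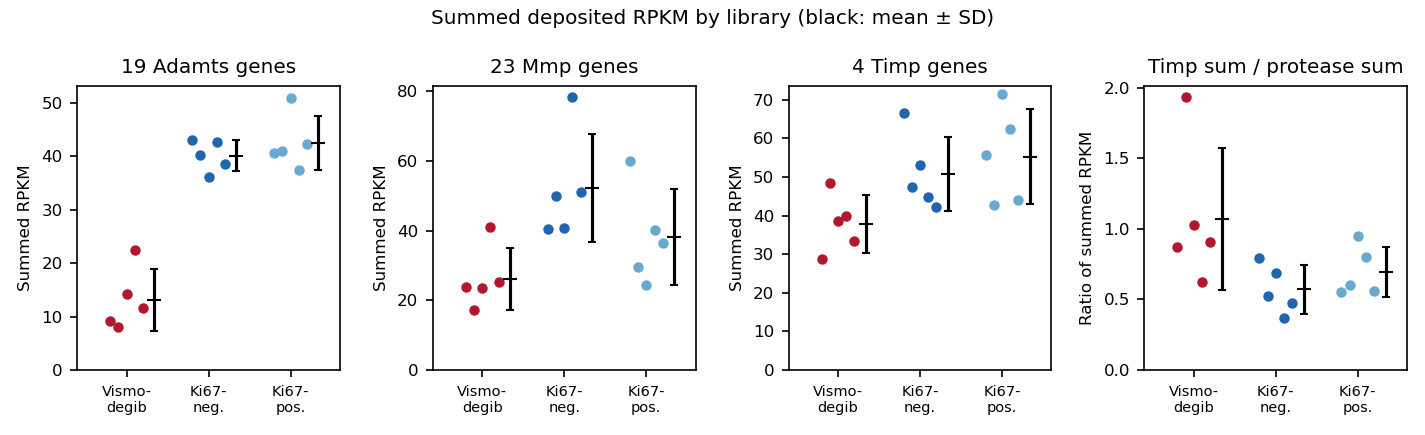
Summed deposited RPKM of the 19 Adamts, 23 Mmp and 4 Timp genes and the ratio of the Timp sum to the Mmp and Adamts sum, 1 point per library, with vismodegib, Ki67-negative and Ki67-positive nests from left to right and mean ± SD in black (n = 5 each). The Adamts sums of vismodegib nests lie at 8.01 to 22.5 and those of untreated nests at 36.1 to 51.0; the other 3 measures overlap.

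The untreated groups were also set against each other. Between Ki67-negative and Ki67-positive nests, 0 of the 38 tested genes rose and 0 fell with edgeR's quasi-likelihood test, 2 had an unadjusted p under 0.05, against 6.68% of all genes, and 0.174% of all genes were called. DESeq2 and limma voom also called 0 of them. The groups overlapped for all 38, while 1.17% of all genes did not overlap. The 2 with an unadjusted p under 0.05 were Adamts20, at -1.27 ± 0.496 (SE, adjusted p = 0.659), and Mmp12, at 3.47 ± 1.26 (SE, adjusted p = 0.639). Mmp14 differed by 0.26 ± 0.174 (SE, adjusted p = 0.834), and its approximate 95% interval ran from -0.08 to 0.60.

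Genes that act with these enzymes were followed in 6 lists chosen for their known roles, but with earlier results of these data already known. Their counts are therefore a description and cannot show an excess over all genes. Beside them stand 16.5% of all genes called lower and 15.4% higher against Ki67-negative nests, and 13.4% lower and 12.6% higher against Ki67-positive nests. Among substrates and linkers of the proteoglycan matrix, 3 of 4 tested genes fell against each untreated group. Vcan, versican, averaged 69.2 ± 68.0 CPM in vismodegib nests, 909 ± 413 in Ki67-negative nests and 1001 ± 250 in Ki67-positive nests (SD, n = 5 each), with log2 fold changes of -3.71 ± 0.557 against Ki67-negative nests (adjusted p = 0.000186) and -3.85 ± 0.56 against Ki67-positive nests (adjusted p = 0.000163). Acan, aggrecan, had log2 fold changes of -4.42 and -5.18 and Hapln1, a link protein, of -4.18 and -2.63 against Ki67-negative and Ki67-positive nests; both genes were low throughout. The Adamts-like genes, which resemble Adamts proteases without the protease domain, had 2 of 4 lower in each comparison; Adamtsl1 averaged 13.9 ± 1.81 CPM in vismodegib nests, 226 ± 56.1 in Ki67-negative nests and 187 ± 61.8 in Ki67-positive nests. The tolloid list holds proteases that trim procollagen carboxy-terminal propeptides and also the Pcolce genes, which are not proteases. Of its 5 tested genes, 3 fell in each comparison. Tll1 had log2 fold changes of -4.28 and -4.30, Bmp1 of -1.05 and -1.09 and Pcolce of -1.46 and -1.27 against Ki67-negative and Ki67-positive nests.

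Of the 10 tested genes for activation and surface control, 4 fell and 1 rose against Ki67-negative nests, and 3 fell and 1 rose against Ki67-positive nests; 1 of 10 rising is near the share over all genes. Furin, a convertase that activates Mmp14 and Mmp11, averaged 61.3 ± 5.31 CPM in vismodegib nests, 154 ± 40.7 in Ki67-negative nests and 142 ± 20.4 in Ki67-positive nests. Pcsk5, another convertase, and Reck, a membrane inhibitor of Mmps, also fell in both comparisons, and the convertase Pcsk6 rose in both, at 1.67 and 1.14 on the log2 scale. In the plasminogen system, whose protease plasmin activates several pro-Mmps, 3 of 6 tested genes fell and 2 rose against Ki67-negative nests, and 2 fell and 2 rose against Ki67-positive nests. Serpine2, an inhibitor of serine proteases, had log2 fold changes of -1.94 and -2.71 and Plat, tissue plasminogen activator, of -1.57 and -2.22 against Ki67-negative and Ki67-positive nests. Serpinb2, an inhibitor of urokinase, averaged 55.2 ± 39.4 CPM in vismodegib nests, 2.58 ± 4.35 in Ki67-negative nests and 3.95 ± 4.05 in Ki67-positive nests. Of 10 Adam genes, Adam23 rose, with log2 fold changes of 2.47 and 2.87, and Adam33 fell, with -2.24 and -1.33, against Ki67-negative and Ki67-positive nests, and Adam17 rose by 0.50 against Ki67-negative nests and was not called against Ki67-positive nests; that difference was not tested. These Adam counts, 2 of 10 higher and 1 lower against Ki67-negative nests and 1 of 10 each way against Ki67-positive nests, are near the shares over all genes.

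**Figure D5:**
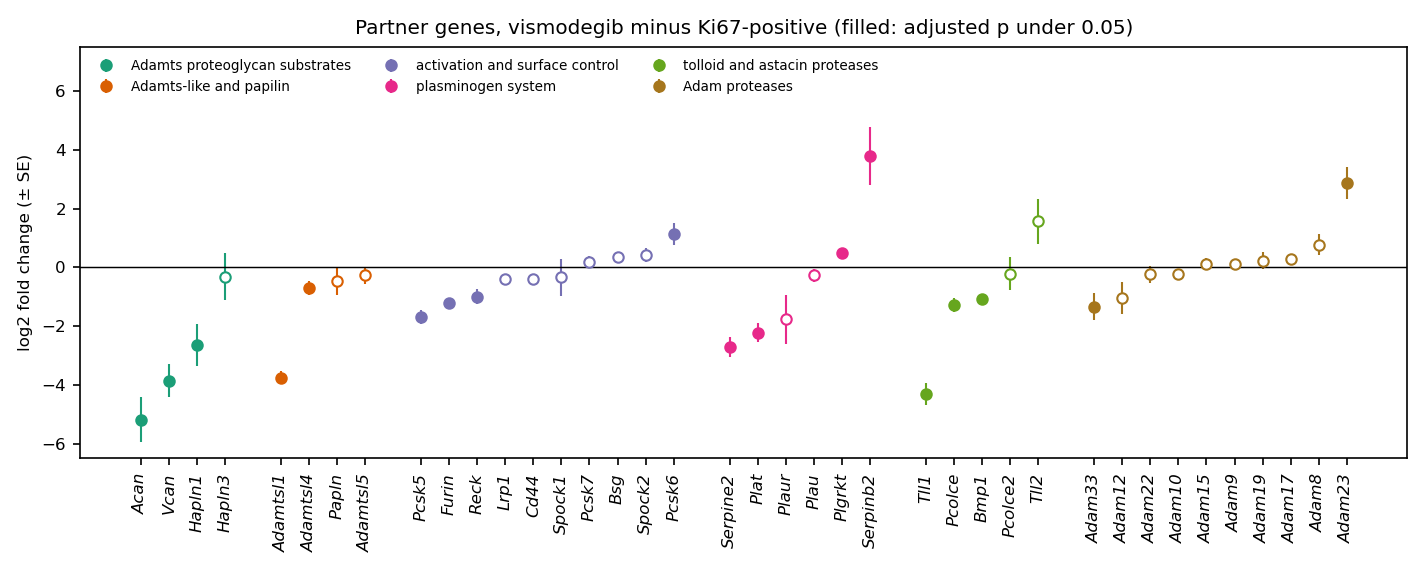
Log2 fold change with standard error of the tested genes of the 6 partner lists in vismodegib against Ki67-positive nests, ordered within each list; filled symbols have an adjusted p under 0.05. The lowest are Acan at -5.18, Tll1 at -4.30 and Vcan at -3.85, and the highest are Serpinb2 at 3.78 and Adam23 at 2.87.

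The remaining genes were low or not called. Adamts8, which lies 20.1 kb from Adamts15 on chromosome 9, had 33 counts in vismodegib nests, 24 in Ki67-negative nests and 38 in Ki67-positive nests and was not tested. Adamts13, the protease of von Willebrand factor, and Adamts16 were not tested either, with at most 19 counts in a group. Mmp21 was tested and not called, at -0.52 ± 0.465 (SE, adjusted p = 0.418) against Ki67-negative and 0.24 ± 0.474 (SE, adjusted p = 0.756) against Ki67-positive nests. Across the 38 tested genes, the median coefficient of variation between libraries was 58% in vismodegib nests, 49.8% in Ki67-negative nests and 51.3% in Ki67-positive nests. Mmp14 and Timp2 varied least among untreated nests, at 16% and 13.5% in Ki67-negative and 18.5% and 18.6% in Ki67-positive nests.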

How the data were processed

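The counts are unique alignments per gene model, per the file headers; per the submitters' processing notes, GSNAP and GRCm38 were used. The deposited RPKM are adjusted by size factors, per the file headers, and were each a constant per gene and library times the count (11415 genes, all within 0.1%). For annotation release and strand use, the sources used here say nothing. Of 36528 identifiers, 31049 (85.0%) matched a RefSeq symbol; unmatched ones held 2.258% to 3.934% of counts and stayed in the fit. The members, roles, marker and partner lists were chosen with earlier results of these data known.

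Counts were tested with edgeR 4.0.16 in R 4.3.3: TMM factors (0.937 to 1.05), filterByExpr (minimum count 10, minimum total 15, leaving 17282 genes), robust quasi-likelihood fit over all 15 libraries (12 residual degrees of freedom, no covariate), two-sided, Benjamini-Hochberg adjustment over all genes tested. The common biological coefficient of variation was 0.348. CPM use TMM-scaled library sizes. Libraries were numbered in accession order; replicates differed by 13.24 to 43.32 times the counting noise in a chi-square test, so no duplicate was seen. Values are given for genes called in any comparison and for the 5 with the highest mean RPKM; other genes shown by value were added after their values were seen. Alternatives were size factors by RLE, no filter, a minimum count of 50, limma voom 3.58.1, DESeq2 1.42.0, only the groups compared, and leaving out each library. The scripts were tested on simulated data. Genes sharing reads with copies or overlapping genes are uncertain. Protein sequences were not used here. A gene of the plasminogen list is not reported here and is left out of that list's counts.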

Additional observations from a re-analysis of the deposited data

Results flagged for a closer look

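Single libraries stood apart within a group of 5 for 14 of 114 tested combinations of gene and group (12.3%), by a gap to the nearest value of more than 0.71 of the group's range. In normally distributed values chance gives about 1 in 20. All 14 stood apart on the high side of the CPM values, and the rate that chance gives in skewed values was not measured. Vismodegib library 4 was the high one for Mmp12 (152.4 CPM, others 5.06 to 33.5), Adamts12 (30.75 CPM, others 7.43 to 10.8), Mmp19 (26.4 CPM, others 11.7 to 14.7) and Adamts15 (5.105 CPM, others 1.90 to 2.62). Its fibroblast marker sum of 3009 CPM lay within that group's 489 to 3859. Vismodegib library 2 was high for Timp3 (668.7 CPM, others 238 to 361) and Mmp28 (18.3 CPM, others 6.81 to 9.30), and its fibroblast marker sum, 489 CPM, was the lowest of the 15. Vismodegib library 3 was high for Adamts3 (2.97 CPM) and library 1 for Mmp21 (3.545 CPM). Ki67-negative library 4 was high for Mmp3 (123.4 CPM, others 3.03 to 21.5), Adamts15 (44.5 CPM, others 9.29 to 15.5) and Mmp28 (4.08 CPM, others 0.150 to 1.21), and library 3 for Mmp12 (92.3 CPM, others 2.09 to 7.10). Ki67-positive library 1 was high for Mmp3 (66.8 CPM, others 1.61 to 11.9) and library 5 for Adamts18 (84.3 CPM, others 31.5 to 37.2).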

How the results depend on the processing

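Of 38 calls of member genes against an untreated group, 28 were kept under every alternative in which the gene was tested. The other 10 were lost under at least 1, as given beside them. The 28 include calls of genes left untested at a minimum count of 50. These were Mmp28 and Adamts19 in both comparisons, and Mmp25 and Adamts20 against Ki67-positive nests. The number rising against Ki67-positive nests, 4, was 1 with a minimum count of 50, which drops Mmp28, Mmp25 and Mmp9 from the test, and 2 with limma voom; leaving out a library gave 2 to 4, the lowest without Ki67-positive library 3. The number falling against Ki67-positive nests, 17, was 14 to 18 leaving out a library. Against Ki67-negative nests the number rising, 2, was 1 with no filter, 0 with a minimum count of 50 and 1 with only the 2 groups compared. Leaving out a library gave 1 to 4 rising, with 4 without Ki67-negative library 4. The number rising was 1 without vismodegib 1, 3, 4 or 5, Ki67-positive 2, 4 or 5, or Ki67-negative 1 or 2. The number falling against Ki67-negative nests, 15, was 14 to 16 leaving out a library. With no filter both Adamts12 and Adamts20 lost that call, and a minimum count of 50 left Adamts19 and Adamts20 untested. Between untreated groups, the 30 genes of all genes that were lower became 15 with limma voom, 80 with DESeq2, 0 with only the 2 groups and 0 to 43 leaving out a library (0 without Ki67-negative 3, 4 or 5 or Ki67-positive 4, 2 without Ki67-positive 5, 12 without Ki67-negative 2), and the 0 higher became 7 with DESeq2 and 0 to 1 leaving out a library (1 without Ki67-positive 2). The causes were not tested. Among fold changes that were not called, some changed sign when a library was left out: against Ki67-positive nests Mmp2 (-0.16 to 0.45) and Timp2 (-0.18 to 0.06), against Ki67-negative nests Mmp12 (-0.42 to 3.09), and between untreated groups Adamts1 (-0.17 to 0.13), Adamts10 (-0.53 to 0.08), Adamts12 (-0.09 to 0.47), Adamts18 (-0.42 to 0.08), Adamts19 (-0.14 to 0.37), Adamts4 (-0.14 to 0.34), Adamts7 (-0.31 to 0.26, and 0.16 with limma voom), Mmp28 (-0.91 to 0.41) and Timp2 (-0.04 to 0.13). No paired analysis was possible because the labels give no replicate numbers. At these depths, genes with a few counts per library, such as Mmp7 and Adamts8, could not be tested.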
